A study of Mus musculus with 12 samples.

Results

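The 36 genes examined here encode enzymes and remodelers of chromatin, and they were taken by name in 6 role groups: 7 histone methyltransferases, 5 histone demethylases, 4 Polycomb proteins, 6 proteins of DNA methylation and its removal, 6 histone deacetylases and 8 ATP-dependent remodeling factors. All 36 were found in the RefSeq gene table of the mouse assembly (GRCm38.p6, the build of mm10) among 21883 coding genes. ChIP-seq peaks of the estrogen receptor ERα and of the progesterone receptor PR were linked to a gene where the summit lay within 50 kb of its span. They were called gene-end peaks where the summit lay within 1 kb of either end of that span. The glands came from mice whose Esr1 gene was wild type (WT) or carried Y541S, which changes 1 residue of the ligand-binding domain of the receptor. All mice were raised to 8 weeks and carried estradiol (E2) and progesterone (P4) implants when glands were taken 4 days after implantation, so no group lacked hormone. Each receptor and genotype had 2 libraries, which gave 8 peak lists, and 4 further samples, with the D542G change, were not analysed here. Whole mammary glands were the stated tissue, while the title of the series speaks of luminal cells, so the cell type behind a peak is not known. The Y541S genotype could not be checked from peak lists.

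Histone methyltransferases of the KMT2, SETD2 and NSD families place methyl marks that accompany active or transcribed chromatin, demethylases remove methyl marks, and Polycomb repressive complex 2 writes a repressive mark on histone H3. DNA methyltransferases and TET enzymes set and remove cytosine methylation, deacetylases strip acetyl groups from histones, and SWI/SNF, CHD and NURF factors slide or evict nucleosomes. Several of these proteins are known coregulators of ERα or PR, among them KDM1A, HDAC3, ARID1A and SMARCA4. The comparison concerns how both receptors lie on the genes that encode them.

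The deposited lists held 64488 to 113695 peaks. Background coverage recovered from the deposited values, a measure of depth, was lowest in WT PR replicate 2 (0.927) and highest in WT PR replicate 1 (2.68). Of 22 cell type marker genes, a region in all 4 ERα libraries lay near 6 of 8 luminal, 3 of 4 basal, 4 of 4 adipocyte, 1 of 2 fibroblast, 1 of 2 endothelial and 1 of 2 immune genes. Of all coding genes, 72.4% had such a region. A region in all 4 PR libraries lay near all 22 marker genes (78.1% of coding genes). These counts describe where peaks lie and name no cell type. The lack of a peak does not show the lack of binding, since weaker signal was not listed, and peak heights were not scaled between libraries.

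The RefSeq promoter table, with 250 bases before to 50 bases after each listed start site in GRCm38.p6, held 28 of the 36 genes. The Kmt2a promoter (chr9:44881240-44881539, minus strand) is shown because the best-ranked ERα region near any of these genes lay on it, and it held none of the 4 motifs searched. The Kdm6a promoter (chrX:18162325-18162624, plus strand) and the Smarcb1 promoter (chr10:75921565-75921864, minus strand) are shown because each overlapped a peak in all 8 libraries. One Hdac7 promoter (chr15:97814814-97815113, minus strand) is shown because it overlapped a peak in 4 PR libraries but in 1 ERα library. Capitals mark the short ER site TGACC on either strand and the AP-1 site TGANTCA:
Kmt2a: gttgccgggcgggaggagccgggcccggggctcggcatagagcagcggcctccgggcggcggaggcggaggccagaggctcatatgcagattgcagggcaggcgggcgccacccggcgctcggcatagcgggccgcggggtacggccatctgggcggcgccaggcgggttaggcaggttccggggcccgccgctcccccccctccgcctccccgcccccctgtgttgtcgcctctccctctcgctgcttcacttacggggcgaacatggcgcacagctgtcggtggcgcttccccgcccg
Kdm6a: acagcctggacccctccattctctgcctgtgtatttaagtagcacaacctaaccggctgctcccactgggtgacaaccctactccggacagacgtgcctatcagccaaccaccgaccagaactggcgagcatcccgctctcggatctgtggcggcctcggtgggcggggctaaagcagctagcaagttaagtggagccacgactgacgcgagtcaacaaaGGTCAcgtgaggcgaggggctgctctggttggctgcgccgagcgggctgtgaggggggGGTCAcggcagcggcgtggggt
Smarcb1: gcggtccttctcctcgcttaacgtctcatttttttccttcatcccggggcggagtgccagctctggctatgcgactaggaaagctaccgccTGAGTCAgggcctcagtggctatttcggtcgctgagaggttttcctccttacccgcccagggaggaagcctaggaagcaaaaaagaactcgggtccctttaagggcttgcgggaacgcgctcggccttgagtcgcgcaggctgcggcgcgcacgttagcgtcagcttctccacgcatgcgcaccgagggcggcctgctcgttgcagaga
Hdac7: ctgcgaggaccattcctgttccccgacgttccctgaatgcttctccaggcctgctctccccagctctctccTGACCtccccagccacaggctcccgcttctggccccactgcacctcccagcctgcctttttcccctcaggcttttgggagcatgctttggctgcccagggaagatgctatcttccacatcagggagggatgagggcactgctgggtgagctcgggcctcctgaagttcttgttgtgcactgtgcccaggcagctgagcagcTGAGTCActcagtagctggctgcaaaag

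Across the 38 promoters of these 28 genes, the full ER element (GGTCA, any 3 bases, then TGACC) was present in 0, against 11 of 21262 coding-gene promoters (0.0517%). The core of the element bound by PR and the glucocorticoid receptor was present in 0 of the 38, against 5.97% of all promoters. The short ER site was present in 11 of 38 (28.9%, against 39.4%) and the AP-1 site in 4 of 38 (10.5%, against 6.99%), the latter at Hdac7, Hdac9, Smarca2 and Smarcb1. Both strands were searched, each arm of a full ER element would also count as such a site, and a match describes letters in this window rather than binding. Promoters of these genes had a median GC content of 66.8%, against 56.3% for all coding promoters. A peak in all 4 ERα libraries overlapped a listed promoter of 15 of the 28 genes (53.6%, against 33.3% of 17491 coding genes with a promoter), and a peak in all 4 PR libraries that of 12 (42.9%, against 29.0%). No library had a peak on any listed promoter of 5 of the 28 (17.9%, against 39.0%).

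Both receptors had peaks near every one of the 36 genes. A region is a chain of overlapping peaks, and a region found in all 4 libraries of a receptor is called shared. All 36 genes had a shared ERα region (72.4% of coding genes) and all 36 a shared PR region (78.1%), and 34 of 36 had a region in all 8 libraries (64.7%), the exceptions being Hdac9 and Smarca2. These genes are long, with a median span of 77.5 kb against 17.2 kb for coding genes, so their windows are larger. Per Mb of window, the median gene held 23.0 shared ERα regions against 13.8 for coding genes, and 35.5 shared PR regions against 22.7. In all, 158 shared ERα and 231 shared PR regions lay near the genes, and 102 regions were present in all 8 libraries. Other genes lie in the same windows: the named gene was the closest coding gene for 69 of the 158 shared ERα regions (43.7%) and 123 of the 231 shared PR regions (53.2%).

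Among the 84 further chromatin genes of a second list, 81 had a shared ERα region (72.4% of coding genes). All 84 had a shared PR region (78.1%). Of these 84, 52 had a shared ERα region at a gene end (36.8% of coding genes) and 44 a shared PR region there (34.6%). Their median span was 39.2 kb, against 17.2 kb for coding genes.

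**Figure D1:**
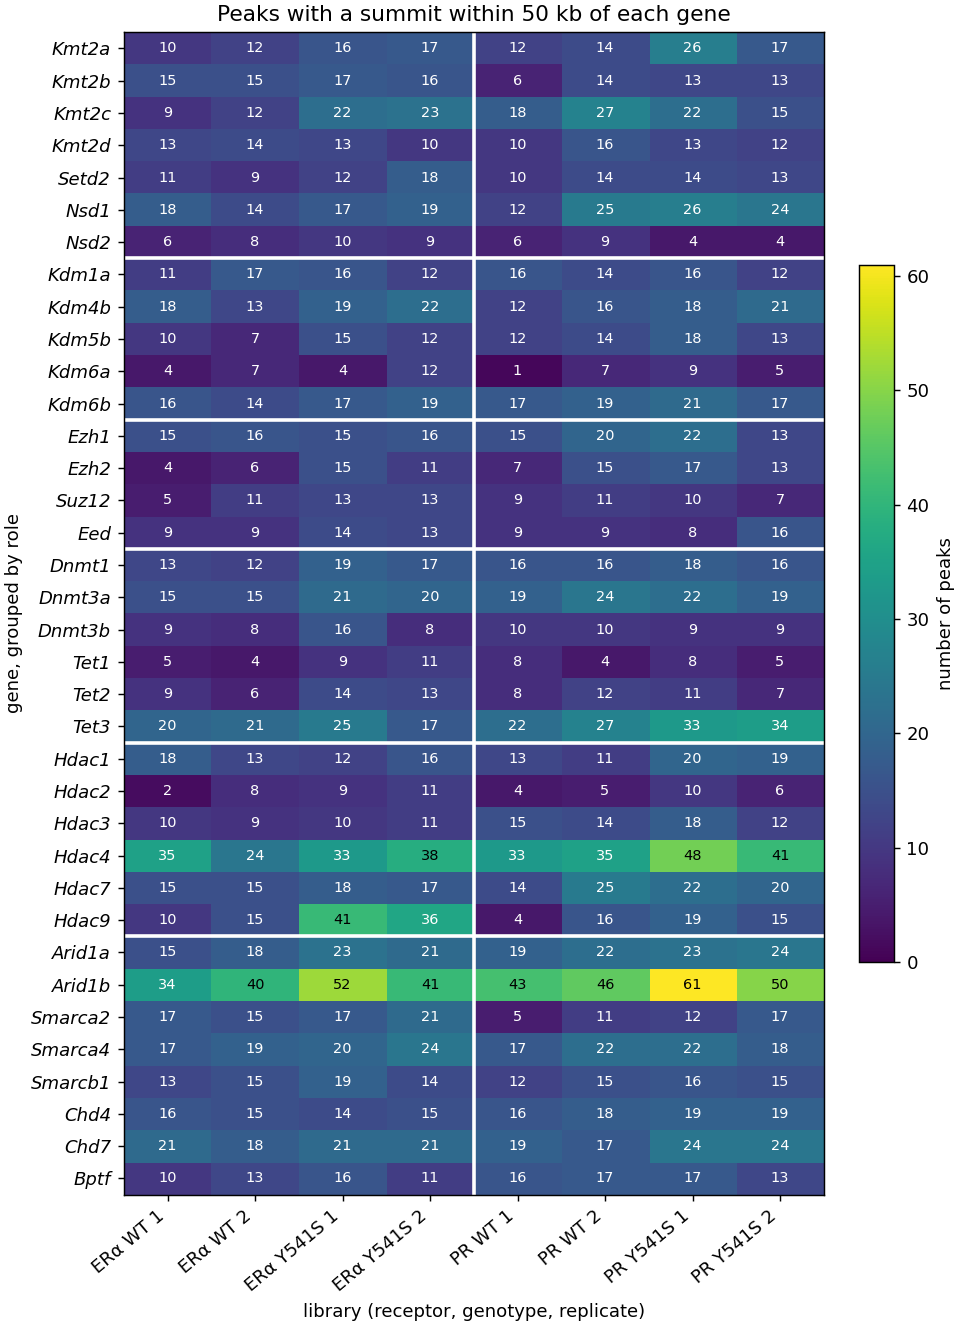
Number of peaks (color and printed count) with a summit within 50 kb of each of the 36 genes (rows, grouped by role) in each of the 8 libraries (columns: receptor, genotype, replicate). Arid1b has the most peaks in 7 of the 8 libraries, from 40 to 61, and Hdac4 in the ERα library of WT replicate 1 (35, against 34 for Arid1b); Hdac9 shows 10 and 15 ERα peaks in WT against 41 and 36 in Y541S.

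Many of the genes had a receptor region at an end of the gene, and a larger part of the ERα than of the PR peaks lay there. The shares of coding genes given in brackets are a description, with no test of the difference. A shared ERα region sat at an end of 21 of 36 genes (36.8% of coding genes) and a shared PR region at an end of 17 of 36 (34.6%). The end was occupied in all 8 libraries for 14 of 36 (28.8%): Kmt2b, Kmt2c, Kmt2d, Setd2, Kdm4b, Ezh1, Ezh2, Eed, Tet3, Hdac1, Hdac2, Arid1a, Smarca4 and Smarcb1. Dnmt3a, Hdac7, Hdac9 and Kdm6a had no gene-end region in any library. For Kdm6a this depends on the annotated span, since its listed start site lies more than 1 kb inside the span and, as printed above, its promoter carried a peak in all 8 libraries. The Hdac7 promoter printed above also lies inside the span, and it carried a peak in 4 PR libraries. At Hdac4, a region in all 8 libraries had its summit 0.419 kb from a listed start site but 14.9 kb from the nearest end. Conversely, no library had a peak on the listed promoters of Kmt2c, Kmt2d and Arid1b. An end of Kmt2c and of Kmt2d was nonetheless occupied in all 8 libraries, and an end of Arid1b in all 4 ERα libraries.

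Of the ERα peaks near the genes, 7.53% and 8.83% were gene-end peaks in the WT libraries and 6.68% and 7.36% in Y541S. Of the PR peaks, 5.15% and 6.22% were gene-end peaks in WT and 5.52% and 6.52% in Y541S. All 4 PR values lay below all 4 ERα values, a mean difference of -1.75 percentage points (SE 0.518). The two-sided exact permutation test of receptor within genotype gave p = 0.0556, the smallest it can give with 36 arrangements, and 0.5 after Benjamini-Hochberg adjustment over 9 tests. Over peaks near any coding gene the same share, counted at the ends of any coding gene, was 21.6% ± 0.949 for ERα in WT and 17.0% ± 0.183 in Y541S, and 15.8% ± 1.98 and 15.8% ± 1.43 for PR (SD, n = 2 each). Among the 20000 strongest peaks of each list, the end was shared for 12 of 36 genes with ERα (17.0% of coding genes) but for 2 of 36 with PR (3.46%), namely Kmt2b and Setd2.

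Y541S lists held more peaks near the genes, but not a larger part of the list. ERα peaks numbered 478 and 487 in the WT libraries and 644 and 625 in the Y541S libraries, a 1.31-fold difference (log2 0.39, SE 0.025), while the whole ERα lists differed 1.55-fold. Both Y541S libraries were above both WT libraries, and the two-sided exact permutation p was 0.333, the smallest that 6 arrangements can give. PR peaks numbered 485 and 611 in WT and 689 and 598 in Y541S, 1.18-fold (log2 0.24, SE 0.20; exact permutation p = 0.667), and these groups overlapped. The PR log2 fold was 0.07 without WT replicate 1, 0.40 without WT replicate 2, 0.14 without Y541S replicate 1 and 0.66 with −log10 p of at least 5. With lists of equal length, the 20000 strongest peaks of each, the groups overlapped for both receptors, with a log2 fold of 0.04 for ERα and -0.025 for PR (exact permutation p = 1 for each). The share of the whole list that lay near the genes was 0.707% ± 0.0682 in WT and 0.597% ± 0.00742 in Y541S for ERα (SD, n = 2; exact permutation p = 0.333). This ERα difference was -0.110 percentage points, and -0.0617 without WT replicate 2. For PR the means were 0.619% and 0.598% (exact permutation p = 1).

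Gene by gene, both Y541S libraries had more ERα peaks than both WT libraries at 21 of 36 genes (40.8% of coding genes) and fewer at 0 of 36 (0.951%). For PR the counts were 11 of 36 (24.5%) and 2 of 36 (3.15%), the 2 being Nsd2 and Dnmt3b. Nsd2, a methyltransferase gene for histone H3 lysine 36, had 6 and 9 PR peaks in WT and 4 and 4 in Y541S, whereas its ERα peaks were 6 and 8 in WT and 10 and 9 in Y541S. Dnmt3b, which encodes a de novo DNA methyltransferase, had 10 and 10 PR peaks in WT and 9 and 9 in Y541S. The gap at Dnmt3b was 1 peak.

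Regions with a peak in each Y541S list and none in the WT lists (Y541S-only) outnumbered the reverse class (WT-only) for both receptors. ERα had 50 of the former and 12 of the latter near the genes, at 26 of 36 genes (49.4% of coding genes) and at 10 of 36 (11.5%). PR had 69 and 5, at 27 of 36 genes (55.2%) and at 5 of 36 (9.64%), the 5 being Kmt2c, Kdm1a, Hdac3, Smarca4 and Bptf. The whole lists gave 9843 and 1385 such regions for ERα and 13325 and 1075 for PR. These shares of genes are not adjusted for the longer spans of the 36 genes. Y541S-only regions made up 17.8% of the ERα regions in both Y541S lists near the genes, against 22.3% near any coding gene. For PR this was 16.5%, against 17.9%. When each list was limited to its 20000 strongest peaks, which makes the lists equally long, Y541S-only regions no longer outnumbered WT-only regions: 4 genes had a Y541S-only and 6 a WT-only ERα region (14.8% and 5.81% of coding genes), and 7 and 8 did for PR (8.63% and 8.47%). At gene ends, Y541S-only ERα regions were found at Ezh2, Tet3 and Hdac3, 3 of 36 (4.83% of coding genes), and Y541S-only PR regions at Kdm5b, Tet2 and Hdac4, 3 of 36 (4.85%). The ERα ones lay 115, 195 and 488 bp from a WT peak of ERα, in that order. Ezh2 and Tet3 also had a shared ERα region at a gene end. The PR ones lay 2691, 603 and 274 bp from a WT peak of PR. Tet2 also had a shared PR region at a gene end. WT-only regions at the ends of these genes numbered 0 of 12 for ERα and 0 of 5 for PR. Of the WT-only regions near any coding gene, 15.2% (ERα) and 9.12% (PR) lay at the end of a coding gene.

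**Figure D2:**
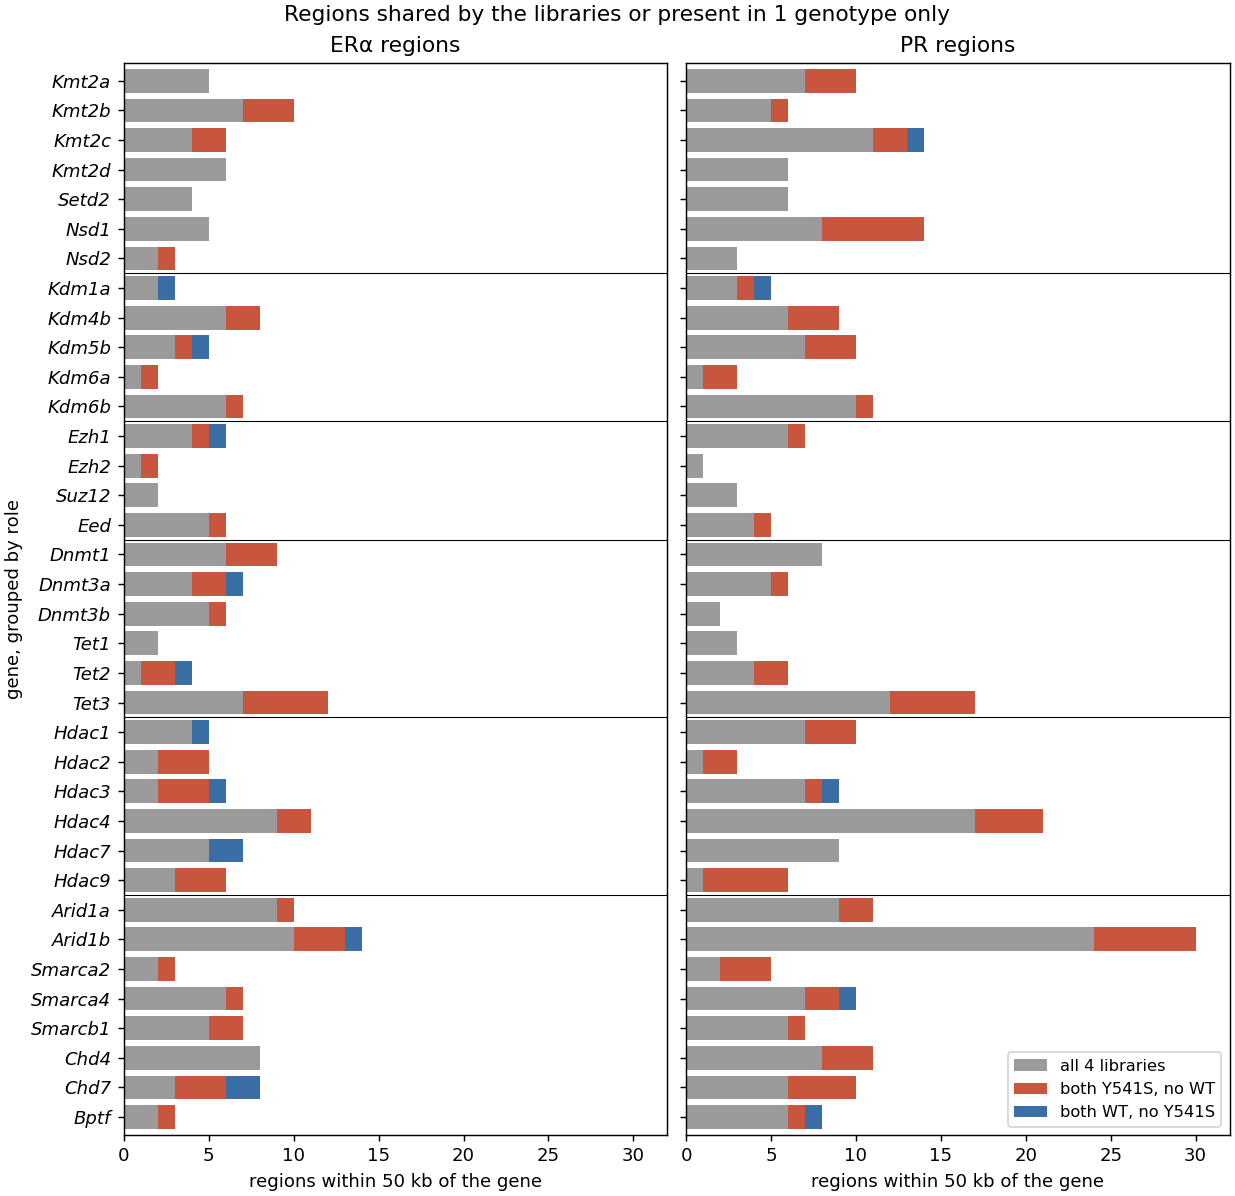
Number of ERα (left) and PR (right) regions within 50 kb of each gene, by whether the region was in all 4 libraries of the receptor (gray), in both Y541S and no WT library (red), or in both WT and no Y541S library (blue). Shared regions make up most of the bars, with 158 shared, 50 Y541S-only and 12 WT-only for ERα and 231, 69 and 5 for PR.

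Much of the WT binding near these genes was also listed in Y541S. Of the 189 ERα regions that both WT lists held, 158 (83.6%) also appeared in each Y541S list, against 79.7% of such regions near any coding gene. For PR the count was 231 of 256 (90.2%, against 88.7%). Some regions of 1 genotype only lay close to a peak of the other genotype: 18 of the 50 ERα Y541S-only regions were within 500 bp of an ERα peak of a WT library, against 17.6% of all ERα Y541S-only regions. For PR this was 9 of 69 (against 14.3%). Of the WT-only regions, 4 of 12 for ERα (33.1% of all ERα WT-only regions) and 4 of 5 for PR (24.4% of all PR WT-only regions) lay within 500 bp of a Y541S peak of the same receptor.

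**Figure D3:**
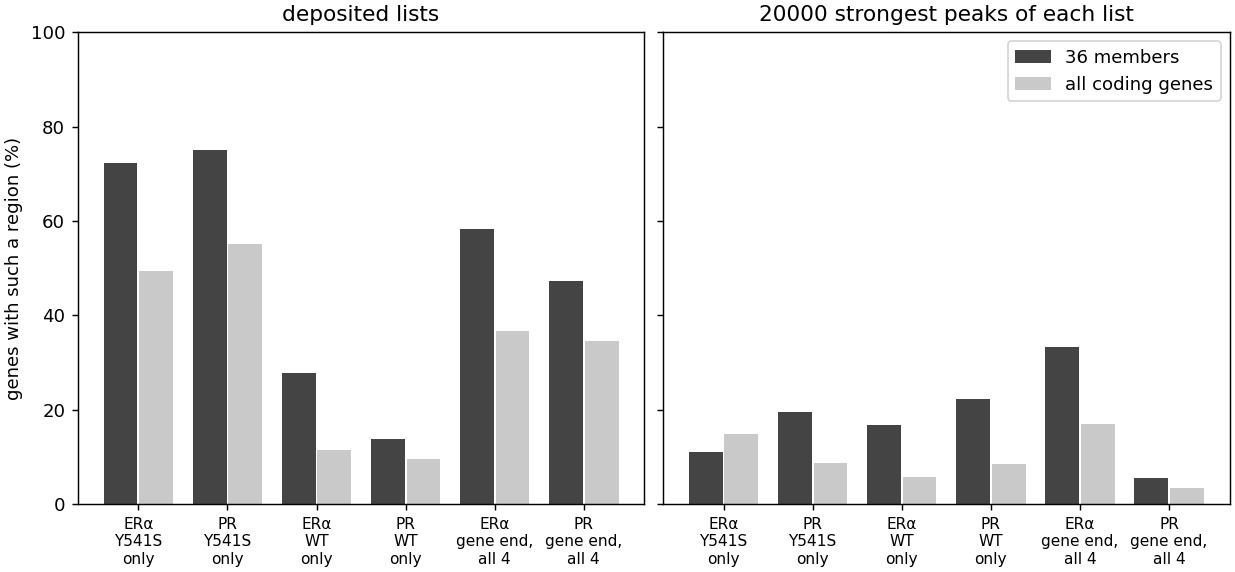
Percentage of the 36 genes (dark bars) and of all 21883 coding genes (light bars) with a Y541S-only region, a WT-only region, or a gene-end region in all 4 libraries, for ERα and PR, in the deposited lists (left) and in the 20000 strongest peaks of each list (right). The Y541S-only bars of the 36 genes drop from 26 and 27 genes on the left to 4 and 7 on the right.

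The share of ERα peaks near the genes that overlapped a peak of the PR library with matching genotype and number was higher in both Y541S libraries than in both WT libraries. The values were 35.1% and 42.1% in WT and 49.7% and 45.6% in Y541S, a difference of 9.02 percentage points (SE 4.03; two-sided exact permutation p = 0.333). The Y541S PR lists were also the longer ones. In the 20000 strongest peaks of each list the difference was 3.95 points (exact permutation p = 0.667), with −log10 p of at least 5 it was 17.6, and without WT replicate 1 it was 5.55 (exact permutation p = 0.667). Over all ERα peaks the shares were 37.5% ± 1.86 in WT and 41.3% ± 5.51 in Y541S (SD, n = 2). Regions in all 8 libraries made up 65.0% of the regions held by all 4 ERα libraries near the genes (61.8% near coding genes) and 43.8% of those held by all 4 PR libraries (33.4%). Of the 36 genes, only Hdac3 had more peaks in each PR library than in each ERα library (4.29% of coding genes), and only Kmt2b had fewer (0.809%). Hdac3, the deacetylase of the NCoR corepressor complex, had 10, 9, 10 and 11 ERα peaks and 15, 14, 18 and 12 PR peaks. Kmt2b, a methyltransferase gene of histone H3 lysine 4, had 15, 15, 17 and 16 ERα peaks and 6, 14, 13 and 13 PR peaks (WT replicates 1 and 2, then Y541S replicates 1 and 2).

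Among the histone methyltransferase genes, Kmt2a carried the best-ranked ERα region of the 36 genes and Kmt2c the best-ranked PR region. The Kmt2a region (chr9:44881265-44882292, 1028 bp) lay at the gene end, with its summit 0.163 kb from the listed start site. Its ERα fold enrichment over local expectation, a deposited value, was 16.8 and 21.8 in WT and 18.2 and 24.1 in Y541S, with summit coverage of 140, 137, 125 and 188. It ranked 24th in the WT replicate 2 list and 22nd in the Y541S replicate 2 list. PR had no peak there in WT replicate 1 and folds of 6.73, 5.92 and 7.02 in the other 3 libraries. Kmt2a encodes MLL1, a methyltransferase of histone H3 lysine 4.

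The Kmt2c region (chr5:25296775-25297511, 737 bp) lay inside the gene, 25.3 kb from its nearest end. Kmt2c encodes MLL3, which marks enhancers. PR fold enrichment was 21.3 and 23.3 in WT and 23.6 and 21.2 in Y541S, and the region ranked 12th, 21st, 2nd and 28th in the 4 PR lists. All 4 ERα libraries had a peak there too, with folds of 5.79, 5.93, 6.93 and 4.74. At the Kmt2a region all ERα folds lay above all PR folds, and at the Kmt2c region all PR folds lay above all ERα folds. The folds of both genotypes overlapped at the Kmt2c region for each receptor.

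Kmt2b had the most shared ERα regions of its group (7) and Kmt2c the most shared PR regions (11), whereas Nsd2 had the fewest of both (2 and 3). Nsd1, like Nsd2 a methyltransferase gene of histone H3 lysine 36, had 6 Y541S-only PR regions but 0 Y541S-only ERα regions. The best-ranked Y541S-only PR region of all 36 genes lay 28.8 kb outside Kmt2c, with Cct8l1 as its closest gene, at folds of 5.68 and 4.26. At the gene end of Setd2, the PR fold was above the ERα fold of the same genotype and replicate number in all 4 cases, with 3.89, 3.82, 4.90 and 6.14 for ERα and 5.62, 10.4, 13.9 and 11.9 for PR. Setd2 encodes the main enzyme of histone H3 lysine 36 trimethylation.

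**Figure D4:**
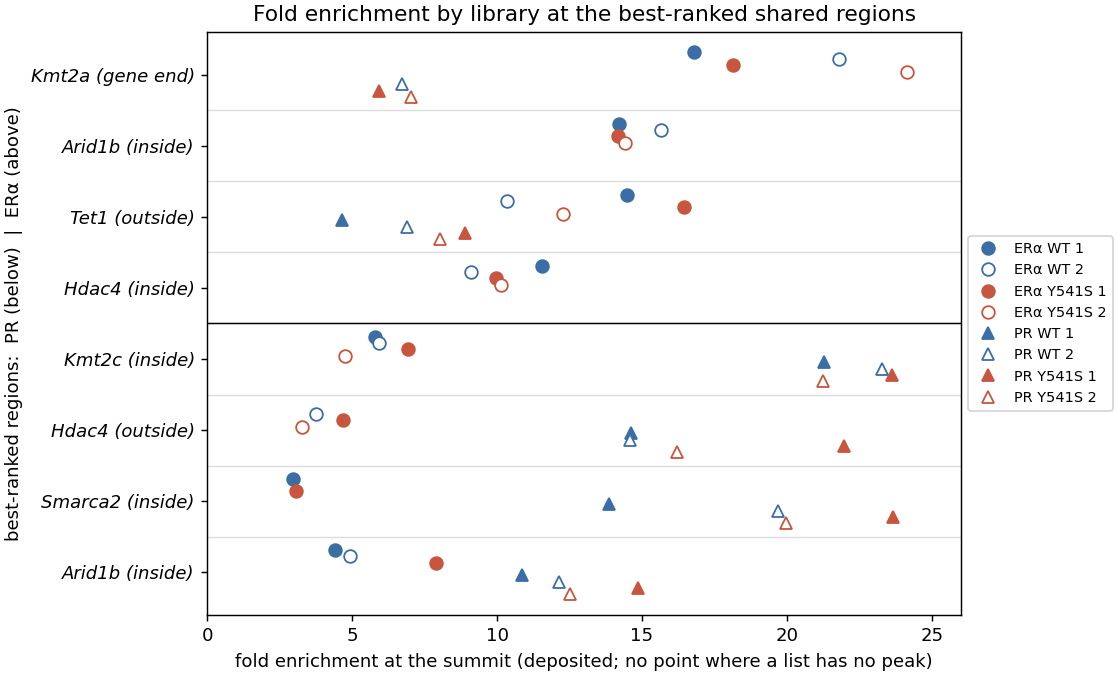
Deposited fold enrichment (x axis) in each library at the 4 best-ranked shared ERα regions (upper rows) and the 4 best-ranked shared PR regions (lower rows) near the genes; circles are ERα, triangles PR, blue WT, red Y541S, filled replicate 1 and open replicate 2, and a missing point means no peak. ERα at Kmt2a reaches 24.1 and PR at Kmt2c 23.6, with the other receptor at 7.02 or less at both.

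Of the demethylase genes, Kdm4b and Kdm6b had 6 shared ERα regions each, and Kdm6b had 10 shared PR regions. Kdm6a, an X-linked demethylase of histone H3 lysine 27, had 1 shared region for each receptor, the one on its promoter. Its PR peaks numbered 1 and 7 in WT and 9 and 5 in Y541S, and these groups overlapped. Kdm4b, an estrogen-responsive gene in breast cancer cells that encodes a demethylase of histone H3 lysine 9, held 2 of the 4 best-ranked Y541S-only ERα regions. One lay inside the gene (chr17:56350385-56351096) with folds of 4.36 and 5.71, and the other 21.8 kb outside it, closest to Ptprs, with folds of 4.19 and 4.18. A Y541S-only PR region inside Kdm4b had folds of 5.63 and 5.36, and one inside Kdm5b, a demethylase gene of histone H3 lysine 4, had 6.35 and 5.67. The best-ranked WT-only PR region lay 26 kb outside Kdm1a (chr4:136524291-136524691), closest to Luzp1, with folds of 4.87 and 6.86, and a Y541S peak lay 225 bp away.

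The 4 Polycomb genes had 12 shared ERα and 14 shared PR regions in all. Eed, the subunit that binds the methylated histone tail, had the most shared ERα regions (5) and Ezh1 the most shared PR regions (6). Ezh2, the catalytic subunit, had 1 of each, and Suz12 had 2 and 3. The Ezh2 region was at the gene end in all 8 libraries, with ERα folds of 3.76, 4.25, 5.50 and 6.06 and PR folds of 5.30, 4.26, 7.30 and 7.25. Both Y541S values exceeded both WT values for each receptor, and were not scaled between libraries. Ezh2 also had 4 and 6 ERα peaks in WT against 15 and 11 in Y541S. A region 38.8 kb outside Eed was among the 6 best-ranked shared PR regions, with PR folds of 15.2, 12.8, 18.3 and 12.2 and ERα folds of 7.29, 4.34, 6.72 and 4.61.

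In the DNA methylation group, Tet3 stood out by number: 7 shared ERα and 12 shared PR regions, and 5 Y541S-only regions for each receptor. Tet3 encodes an enzyme that oxidizes 5-methylcytosine. Its PR peaks numbered 22 and 27 in WT and 33 and 34 in Y541S, while its ERα peaks numbered 20 and 21 in WT and 25 and 17 in Y541S and overlapped. The best-ranked region present in all 8 libraries lay 25.4 kb outside Tet3, closest to Dguok, with folds from 6.61 to 10.3. The Y541S-only ERα region at the Tet3 gene end (chr6:83457414-83457761) was 195 bp from a WT peak of ERα. Another, outside the gene (chr6:83472744-83473053), was 6 bp from a WT peak of ERα. A further one 5.55 kb outside Tet3, closest to Bola3, had folds of 4.43 and 4.75 in Y541S and no peak in the other 6 libraries. Tet1 had the fewest shared ERα regions after Tet2 (2 against 1), and the strong ERα region in its window, with folds of 14.5, 10.3, 16.5 and 12.3, lay 12.1 kb outside the gene and closest to Ccar1. Dnmt3b had the fewest shared PR regions (2). Dnmt1, the maintenance methyltransferase gene, had 3 Y541S-only ERα and 0 Y541S-only PR regions.

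Among the deacetylase genes, Hdac4 had the most shared regions, 9 for ERα and 17 for PR, in a span of 267 kb. An ERα region inside Hdac4 (chr1:92077868-92078413) had folds of 11.5, 9.10, 9.97 and 10.1 and no PR peak in any library. A PR region 45.5 kb outside Hdac4, closest to Twist2, had PR folds of 14.6, 14.6, 22.0 and 16.2, and ERα folds from 3.26 to 4.66 in 3 libraries. HDAC4, HDAC7 and HDAC9 are class IIa deacetylases that act as transcriptional corepressors. Hdac9, the longest gene of the set at 870 kb, had 10 and 15 ERα peaks in WT against 41 and 36 in Y541S, but 3 shared ERα regions and 1 shared PR region. It had 3 Y541S-only ERα and 5 Y541S-only PR regions. Hdac7 had 2 WT-only and 0 Y541S-only ERα regions, although its ERα peaks numbered 15 and 15 in WT and 18 and 17 in Y541S. Hdac2 had as few shared ERα regions as Hdac3 (2) and, with Hdac9, the fewest shared PR regions (1). The best-ranked WT-only ERα region of the 36 genes lay inside Hdac1 (chr4:129528806-129529172), with folds of 6.46 and 4.04 and no peak in the other 6 libraries. A Y541S peak of ERα lay 538 bp away.

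The remodeler genes included Arid1b, the gene with the most shared regions of each receptor among the 36. Arid1b encodes a DNA-binding subunit of the BAF form of SWI/SNF and spans 353 kb. It had 10 shared ERα and 24 shared PR regions, of which 7 and 20 lay inside the gene. The strongest ERα region (chr17:5283472-5283965) had folds of 14.2, 15.7, 14.2 and 14.4 and no PR peak in any library. The best-ranked PR region (chr17:5094570-5095223), 101 kb inside the gene, had PR folds of 10.9, 12.1, 14.9 and 12.5 and lacked an ERα peak in 1 library. Both receptors had a Y541S-only region at one place inside Arid1b, with ERα folds of 5.70 and 4.05 (chr17:5138727-5139227) and PR folds of 5.08 and 5.50 (chr17:5138748-5139310). A WT-only ERα region (chr17:5139360-5139792) lay 132 bp beyond the former, with folds of 2.45 and 3.76.

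**Figure D5:**
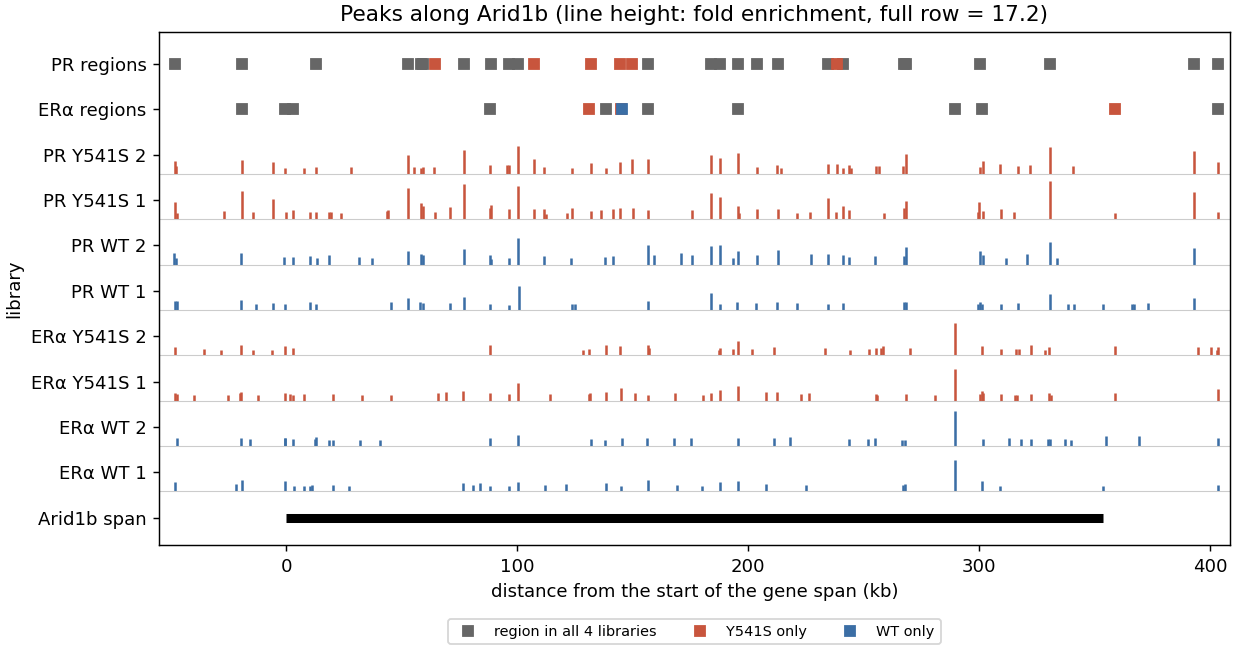
Peaks of each library along Arid1b, placed by the distance of the summit from the start of the gene span (x axis, kb), with line height proportional to fold enrichment; the black bar is the gene span, and squares above mark shared (gray), Y541S-only (red) and WT-only (blue) regions. The strongest ERα peak in each ERα row has no counterpart in the PR rows, and 24 PR against 10 ERα regions are shared.

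Smarca2, which encodes the BRM ATPase of SWI/SNF, had 2 shared regions for each receptor, and Bptf, the largest NURF subunit gene, had 2 for ERα. A PR region inside Smarca2 (chr19:26685380-26686206) had PR folds of 13.9, 19.7, 23.7 and 20, against 2.95 and 3.04 for ERα in the 2 libraries with a peak. A Y541S-only PR region 25.2 kb outside Smarca2 had folds of 7.25 and 6.39. Inside Bptf, a WT-only PR region (chr11:107061510-107061998) with folds of 3.13 and 3.57 lay 47 bp from a Y541S-only PR region with folds of 4.85 and 2.98. Chd7, a chromodomain helicase gene, had 3 Y541S-only and 2 WT-only ERα regions and 4 Y541S-only and 0 WT-only PR regions. A region inside Chd7 was present in all 8 libraries, with ERα folds from 6.0 to 7.16 and PR folds from 10.7 to 16.9. Arid1a, Smarca4 and Smarcb1 each had a gene-end region in all 8 libraries, at Arid1a with ERα folds from 3.75 to 4.44 and PR folds from 3.97 to 5.32. Chd4, the ATPase gene of the NuRD complex, had 8 shared regions for each receptor, and neither receptor had a shared one at its ends.

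Peaks near the genes were of ordinary strength within each list. Their median fold enrichment ranged from 3.15 to 4.31 across the 8 libraries, against 3.25 to 4.64 for the whole lists. Shared regions ranked better than those of 1 genotype: the median of the worse rank was at 35.1% of the list for shared ERα regions, 49.9% for Y541S-only and 84.2% for WT-only, and at 42.9%, 74.9% and 74.1% for PR. The shared class spans 4 lists and the others 2, so these medians are not of like composition.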

How the data were processed

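ChIP-seq peak lists of ERα and PR from whole mammary glands were used for 8 libraries, 2 for each receptor and genotype, precipitated with 4 µg of antibody from 30 µg chromatin, as the labels' protocols state. The submitters' processing notes give mm10 as the build; aligner, peak caller and use of input are not given in the sources used here. The authors deposited 1 list per library, with replicates not pooled, and for each peak a whole-number score, a fold enrichment (ratio) at the summit, a −log10 p (at least 2), a −log10 q and a summit offset. The deposited values served to describe, rank and filter peaks within a list. Nothing in the sources ties replicates to separate animals, so p-values cover the spread between these libraries, which may be technical.

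The 36 genes, the 84 further chromatin genes and the rule for named genes were chosen with earlier results of these data known. Named genes were, in each role group, those with most and fewest regions, those with most Y541S-only or WT-only regions, and those of the best-ranked regions; other genes named for small counts were chosen after their values were seen. Regions were chains of peaks overlapping by at least 1 bp, placed at the summit of the best-ranked peak. Rank followed −log10 p, and a region's rank was its worst percentile over the libraries that held it. Summit coverage and local expectation were recovered from the fold and −log10 p (tolerance 1e-04). Library values were compared with two-sided exact permutation tests. Python 3.11.15, numpy 2.4.6, pandas 2.3.3 and scipy 1.17.1 were used, and counting and recovery were tested on simulated data. Exons, introns and transcripts were not separated, and sequences came from RefSeq (GRCm38.p6).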

Additional observations from a re-analysis of the deposited data

How the results depend on the processing

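The log2 fold of ERα peaks near the genes was 0.37 to 0.53 under the other thresholds, windows and left-out libraries, but 0.04 (exact permutation p = 1) with the 20000 strongest peaks, and its share of the list was not stable. With −log10 q of at least 1.3, PR WT-only regions lay at 3 genes (5.65% of coding genes). With −log10 p of at least 5 the ERα difference in share of the list, Y541S minus WT, turned to 0.0503 percentage points. WT-only regions were then at 5 genes for ERα (4.67% of coding genes) and 1 for PR (2.21%). With the 20000 strongest peaks the log2 fold of PR peaks turned to -0.025. The ERα differences, Y541S minus WT, turned to 0.0150 percentage points in share of the list and 0.835 in gene-end share. Y541S-only regions were then at 4 and 7 genes (ERα, PR), against 14.8% and 8.63% of coding genes. WT-only regions were at 6 and 8 (5.81% and 8.47%). Gene-end regions of all 4 libraries were at 12 and 2 (17.0% and 3.46%), the lists being shorter by construction. With a 10 kb window the PR difference in share of the list turned to 0.00425 percentage points. PR WT-only regions were then at 1 of 36 genes (2.78%, below the 4.28% of coding genes). With 100 kb they were at 9 (15.9% of coding genes). The other alternatives moved no count of genes by over 1.5 times and turned no sign, including an overlap of 50% of the shorter peak and a 2 kb gene end.

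Leaving out 1 library put WT-only regions at 14 to 36 genes for ERα and 7 to 35 for PR, because 1 library then defines a genotype. The PR difference in gene-end share, Y541S minus WT, ranged from -0.201 (without WT replicate 1) to 0.864 percentage points. It was -0.172 without Y541S replicate 2. The PR difference in share of the list ranged from -0.0556 to 0.0135 percentage points, the latter without WT replicate 2. The ERα difference in gene-end share, Y541S minus WT, ranged from -1.81 to -0.513 percentage points (without WT replicates 1 and 2). The PR minus ERα gene-end difference stayed negative in all alternatives (-5.53 to -1.23) and with each library left out (-2.07 to -1.42).

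Replicate numbers are shared across groups without a stated common source. With the replicate block, the ERα log2 fold stayed 0.39 (exact permutation p = 0.5, the smallest of 4 arrangements) and the PR minus ERα gene-end difference -1.75 (exact permutation p = 0.125, the smallest of 16). No test could pass a threshold with or without the block. Background coverage was 0.927 to 2.68, and its effect on detection was not tested.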
